A study of Bos taurus with 8 samples.

Results

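The genes examined here are those of the urea cycle and of hepatic ammonia handling in the fetal liver of Japanese Black cattle, a beef breed. A list of 10 genes was used: CPS1, OTC, ASS1, ASL and ARG1 for the enzymes of the cycle, ARG2 for the mitochondrial arginase, NAGS for the enzyme that makes the activator of CPS1, SLC25A15 and SLC25A13 for mitochondrial carriers, and GLUL for glutamine synthetase. Members were found through the RefSeq accession that the array design gives each probe. Of the 10 genes, 8 had a matched probe and all 8 were detected, among 10860 genes detected in all, and NAGS and SLC25A13 were not analysed here. Livers came from 4 fetuses of dams fed at 60% of their nutritional requirement (low nutrition, LN) and 4 fetuses of dams fed at 120% (high nutrition, HN), all taken at 8.5 months after conception. The diets covered the gestation and the period before pregnancy, and the study had no group fed at its full requirement. The study put its lightest LN fetuses and its heaviest HN fetuses onto the arrays, so the groups were also chosen apart in body weight. Each array carries the label of 1 fetus, although the series' design note mentions pooled RNA, and the labels were followed, with fetuses named L5, L6, L8 and L9 (LN) and L1, L2, L3 and L10 (HN).

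The urea cycle turns ammonia, which is toxic, into urea for excretion, and in mammals the complete cycle runs in hepatocytes. CPS1 and OTC work inside the mitochondrion, where ammonia and bicarbonate are made into carbamoyl phosphate and then citrulline. ASS1, ASL and ARG1 work in the cytosol, where aspartate brings in further nitrogen and arginine is finally split into urea and ornithine, and SLC25A15 carries ornithine back into the mitochondrion. Ammonia that escapes the cycle is bound into glutamine by GLUL, which in adult liver is made in the hepatocytes around the central vein, downstream of those richest in the cycle enzymes. The comparison asks how the transcripts of this pathway stood in the liver of fetuses whose dams were underfed.

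For CPS1, ASS1, ASL and ARG2 the study also designed PCR primers, and these are shown because they tie the array probes to a transcript: the accession given with each pair was the one that the array probes carry. PCR values were not used here. The primers, each of 24 bases and written 5′ to 3′ in lower case with nothing capitalised, were as follows.
CPS1 (NM_001192258) forward: agctgttaacactttgaatgaggc
CPS1 (NM_001192258) reverse: ttcatctcgtcttcggagaatacc
ASS1 (NM_173892) forward: gcttttcctgtacctgaatgaagt
ASS1 (NM_173892) reverse: tgtctaaatgagcgtggtaaagga
ASL (NM_001034428) forward: gaaaagttcaactcgtccatcacg
ASL (NM_001034428) reverse: atgtcctcatcattggggtttagt
ARG2 (NM_001017942) forward: gagaactacaggacaaggtaccac
ARG2 (NM_001017942) reverse: gtctgttccatgaccttctggata

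Every LN array lay on 1 slide and every HN array on another, in 2 scans, so that nutrition cannot be told apart from slide or scan in any difference below. Of 43803 spots per array, 32635 to 33371 in LN and 33254 to 34369 in HN were well above background, and 0 were saturated. The tissue label was checked against markers: 8 of 9 hepatocyte markers were detected (APOB had no matched probe). Their mean log2 signal was between 17.71 and 17.93 in each fetus. Their summed signals were 1992291 to 2081034 in LN and 1934156 to 2052919 in HN. Quantile normalization gives every array the same set of values, and these genes were among the brightest. Their sums and differences were thus largely held together beforehand and cannot compare hepatocyte RNA between the groups. Markers of blood cells differed between fetuses. Of 7 detected erythroid genes, 7 had the higher mean in LN, with summed signals of 14602 to 139506 in LN and 7973 to 32372 in HN, and the highest sum was that of LN fetus L5, whose mean log2 signal over the list was 10.96 against 6.43 to 8.24 in the other fetuses. SLC4A1, EPB42 and KLF1 of that list were not detected. Of 9 detected neutrophil genes, 8 were higher in LN, 4 of them at an unadjusted limma p of 0.05 or less. Among all detected genes, 3.3% were higher in LN at that threshold. The summed neutrophil signals were 9826 to 28809 in LN and 5420 to 13088 in HN. In either direction, 0 of 7 erythroid, 1 of 5 cholangiocyte and 1 of 5 lymphocyte genes reached that threshold, beside 6.05% of all detected genes. The median LN minus HN log2 difference was 0.013 for the hepatocyte list, 1.21 for the erythroid and 0.91 for the neutrophil list, and -0.055 for 7 macrophage, 0.13 for 7 endothelial, -0.13 for 8 stellate, 0.0064 for 5 cholangiocyte and -0.35 for 5 lymphocyte genes. Lists of kidney tubule and intestine genes, drawn up as absent from liver, had 2 detected genes each, with medians of -0.15 and 0.095. Mean log2 signals were 9.57 for AQP2 and 3.88 for SLC12A3 of the kidney list. For the intestine list they were 12.45 for VIL1 and 3.01 for FABP2, so these lists were not free of signal. In whole tissue, fewer cells of a type and less RNA per cell cannot be told apart, and the part of blood cells in the differences of the urea cycle genes was not tested.

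The LN mean was lower than the HN mean for 6 of the 8 detected genes (CPS1, ASS1, ASL, ARG1, ARG2 and SLC25A15) and higher for OTC and GLUL. Among all detected genes, 48.4% had a lower mean in LN. The median LN minus HN log2 difference over the 8 genes was -0.33, beside 0.0075 over all detected genes, and it was -0.14 without L5. In limma with Benjamini-Hochberg adjustment over 33439 detected probes, 0 of the 8 genes passed an adjusted p of 0.05, and 0% of all probes did. At an unadjusted limma p of at most 0.05 there was 1 gene, SLC25A15, which was lower in LN, where the background was 6.05% of genes in either direction and 2.75% lower in LN. Without L3 the count was 3 (CPS1, SLC25A15 and GLUL), and the share of all detected genes was 7.76%. In OTC the LN fetuses lay above the HN fetuses without overlap, and groups did not overlap for 4.14% of all detected genes (2.59% with LN higher). The standard error of the difference had a median of 0.24 over the 8 genes and of 0.17 over all detected genes. The 8 genes were measured by 22 probes, each of them well above background on all 8 arrays, 14 of them had the lower mean in LN (49.7% of all detected probes did), and 2, both of SLC25A15, reached an unadjusted limma p of 0.05 (6.32% of all detected probes). The 6 genes with more than 1 probe gave the same direction on each of their probes, apart from ARG1, for which 2 probes were lower and 2 higher.

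**Figure D1:**
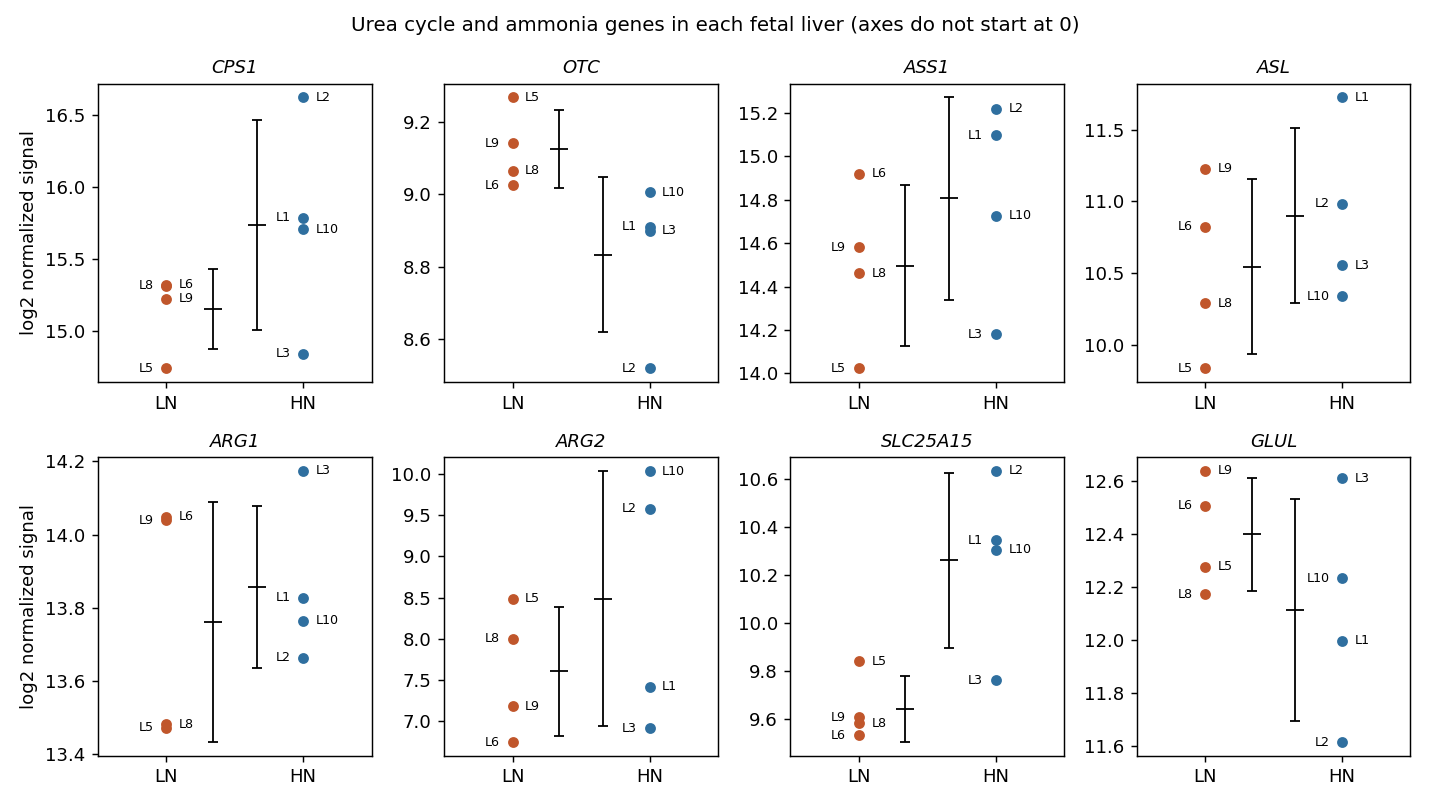
Quantile-normalized log2 signal (vertical axis) of the brightest detected probe of the 8 genes, 1 panel per gene, with a point for each fetus and a bar with whiskers for the mean and SD of 4 LN and 4 HN fetuses. The LN points lie above all HN points for OTC, and for SLC25A15 only LN fetus L5 reaches above HN fetus L3.

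CPS1, which fixes ammonia in the first and rate-setting step, had a mean log2 signal of 15.15 ± 0.28 (SD, n = 4) in LN and 15.74 ± 0.73 in HN on its brightest probe. The LN fetuses L5, L6, L8 and L9 gave 14.74, 15.32, 15.32 and 15.23, and the HN fetuses L1, L2, L3 and L10 gave 15.79, 16.62, 14.84 and 15.71. L2 was the highest and L5 the lowest of the 8, and HN fetus L3 lay among the LN fetuses, so the groups overlapped. The difference on the log2 scale was -0.59 (SE 0.33, 95% interval -1.35 to 0.17), a ratio of LN to HN of 0.666, with a limma p of 0.114 (adjusted p = 0.799) and an exact permutation p of 0.2. The other CPS1 probes gave -0.62 and -0.91, the latter with a limma p of 0.0515. A single HN fetus moved the value most: the difference was -0.29 without L2 and -0.88 without L3, where the limma p was 0.00944.

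OTC joins carbamoyl phosphate to ornithine, and its log2 signals were 9.27, 9.02, 9.06 and 9.14 in L5, L6, L8 and L9 against 8.91, 8.52, 8.90 and 9.01 in L1, L2, L3 and L10. Each LN fetus lay above each HN fetus, most narrowly between L6 and L10. The means were 9.12 ± 0.11 and 8.83 ± 0.21 (SD, n = 4 each), a difference of 0.29 (SE 0.14, 95% interval -0.020 to 0.60) with a limma p of 0.0633 (adjusted p = 0.786). The exact permutation p of 0.0286 is the smallest that 4 fetuses against 4 can give. OTC was measured by 1 probe, and its difference was between 0.19 (without L2) and 0.35 (without L10) when fetuses were left out in turn. Its unadjusted limma p was 0.0463 without L10, 0.0352 with normexp and 0.0451 with no filter on dim probes. Thus the 2 mitochondrial enzymes of the cycle had means on opposite sides, CPS1 lower and OTC higher in LN, although neither passed the adjusted test and the difference between them was not tested.

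ASS1, which condenses citrulline with aspartate, had log2 signals of 14.02, 14.92, 14.46 and 14.58 in L5, L6, L8 and L9 and 15.09, 15.22, 14.18 and 14.73 in L1, L2, L3 and L10. The fetuses at the ends were those of CPS1, with L5 lowest, L3 next and L2 highest, and the groups overlapped. All 4 ASS1 probes had the lower mean in LN, with differences between -0.36 and -0.28. On the brightest, means of 14.50 ± 0.37 and 14.80 ± 0.47 gave -0.31 (SE 0.26, 95% interval -0.91 to 0.29, limma p = 0.272, adjusted p = 0.863, exact permutation p = 0.343), with -0.52 without L3, -0.17 without L2 and -0.15 without L5. ASL cleaves argininosuccinate into arginine and fumarate. Its 1 probe read 9.84, 10.82, 10.29 and 11.23 in the LN fetuses and 11.73, 10.98, 10.56 and 10.34 in the HN fetuses, in the same order. LN fetus L9 was second to HN fetus L1, and the difference of -0.36 (SE 0.37, 95% interval -1.19 to 0.48) was no larger than its error, with a limma p of 0.36 (adjusted p = 0.891, exact permutation p = 0.429). With single fetuses left out it ran from -0.58 without L9 and -0.54 without L10 to -0.12 without L5 and -0.081 without L1.

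The arginases differed in how much they varied. ARG1, the cytosolic enzyme that releases urea, read 13.47, 14.05, 13.48 and 14.04 in L5, L6, L8 and L9 and 13.83, 13.66, 14.17 and 13.77 in L1, L2, L3 and L10. The LN fetuses formed a low pair and a high pair on either side of most HN fetuses, and the difference was -0.097 (SE 0.19, 95% interval -0.53 to 0.33, limma p = 0.62, adjusted p = 0.945, exact permutation p = 0.657). Its other probes gave 0.11, 0.037 and -0.014, and the brightest probe gave 0.0087 without L3, so ARG1 had no settled direction. ARG2, the mitochondrial arginase that is found mainly outside the liver, read 8.49, 6.75, 8.00 and 7.18 in LN and 7.42, 9.58, 6.91 and 10.04 in HN. Its HN fetuses spanned 3.12 on the log2 scale, with L2 and L10 far above L1 and L3, which lay within the LN range. The difference was -0.88 (SE 0.72, 95% interval -2.53 to 0.76, limma p = 0.255, adjusted p = 0.858, exact permutation p = 0.314). Among the brightest probes of the 8 genes, with all fetuses, it was the largest in size and had the largest error. It ran from -1.41 without L3 to -0.37 without L10, where SLC25A15 (-0.61), CPS1 (-0.60) and ASL (-0.54) were larger in size.

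SLC25A15, the mitochondrial carrier that exchanges ornithine for citrulline, had the lowest p of the 8 genes. On the brightest of its 2 probes, the log2 signals were 9.84, 9.53, 9.58 and 9.61 in L5, L6, L8 and L9 and 10.35, 10.63, 9.76 and 10.30 in L1, L2, L3 and L10. L1, L2 and L10 lay above every LN fetus, and L3 lay below L5 and above the other LN fetuses. Means of 9.64 ± 0.14 and 10.26 ± 0.36 (SD, n = 4 each) gave a difference of -0.62 (SE 0.19, 95% interval -1.04 to -0.20), which is a ratio of LN to HN of 0.65 with an interval of 0.485 to 0.872. The limma p was 0.00909 before and 0.76 after adjustment, and the exact permutation p was 0.0571. The other probe gave -0.63 with a limma p of 0.0292. When any 1 fetus was left out, the difference was between -0.79 (without L3) and -0.50 (without L2), and the highest unadjusted limma p was 0.0252. In L5, the fetus with the high erythroid signal, SLC25A15 was the highest of the LN group, and without L5 the difference was -0.69.

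**Figure D2:**
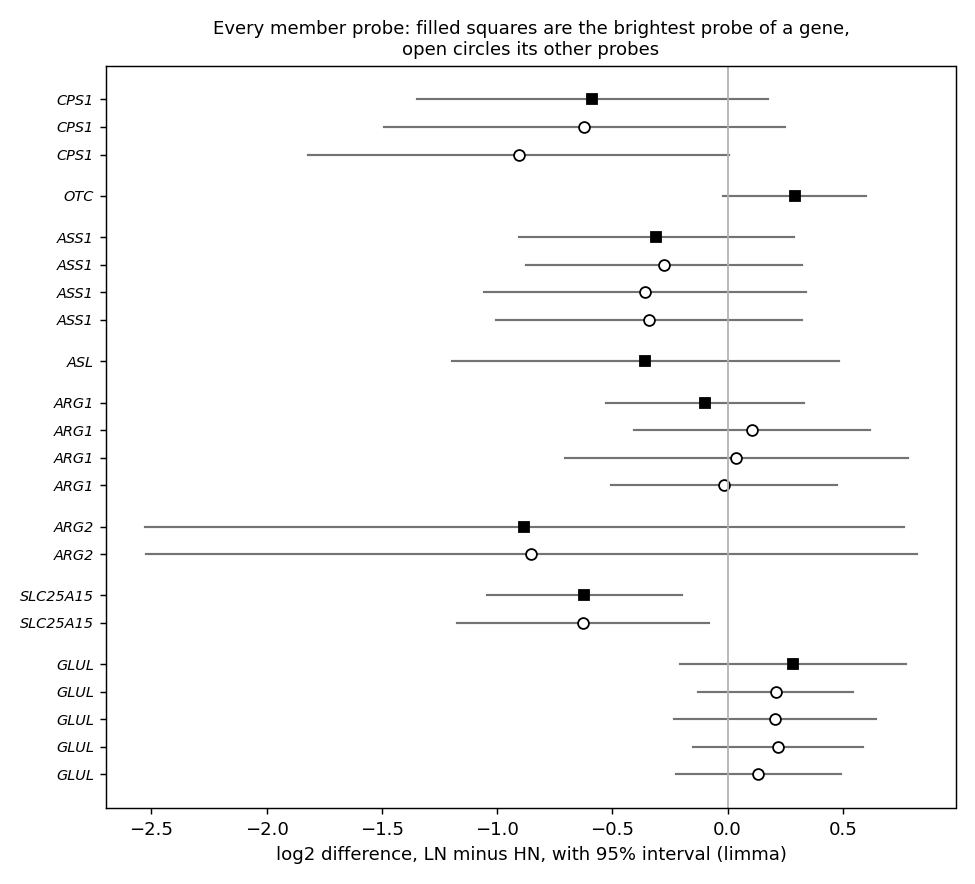
LN minus HN log2 difference (horizontal axis) of each of the 22 probes, grouped by gene, with the limma 95% interval as a line. Both SLC25A15 probes have intervals below 0, all 5 GLUL probes and the OTC probe have means above 0, and the ARG1 probes lie on both sides of 0.

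GLUL, which binds ammonia to glutamate, read 12.28, 12.51, 12.17 and 12.64 in L5, L6, L8 and L9 and 11.996, 11.61, 12.61 and 12.23 in L1, L2, L3 and L10. L9 was the highest and L2 the lowest, with HN fetus L3 second from the top, so the groups overlapped. All 5 GLUL probes had the higher mean in LN, by 0.13 to 0.29. On the brightest, means of 12.40 ± 0.21 and 12.11 ± 0.42 gave 0.29 (SE 0.22, 95% interval -0.20 to 0.78, limma p = 0.219, adjusted p = 0.847, exact permutation p = 0.286). The difference was 0.12 without L2 and 0.45 without L3, where the unadjusted limma p was 0.046.

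Individual fetuses stood out across several genes. LN fetus L5 had the lowest signal of the 8 fetuses for 4 genes (CPS1, ASS1, ASL and ARG1) and the highest for OTC, and HN fetus L2 had the highest for CPS1, ASS1 and SLC25A15 and the lowest for OTC and GLUL. L5 was also the fetus with the highest erythroid signal. Without L5 the median difference of the 8 genes was -0.14, with -0.45 for CPS1, -0.15 for ASS1, -0.00069 for ARG1 and -1.18 for ARG2. HN fetus L3 was below the mean of 6 of the 8 genes and lay beyond the LN mean for CPS1, ASS1, ARG2 (below it) and GLUL (above it).

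**Figure D3:**
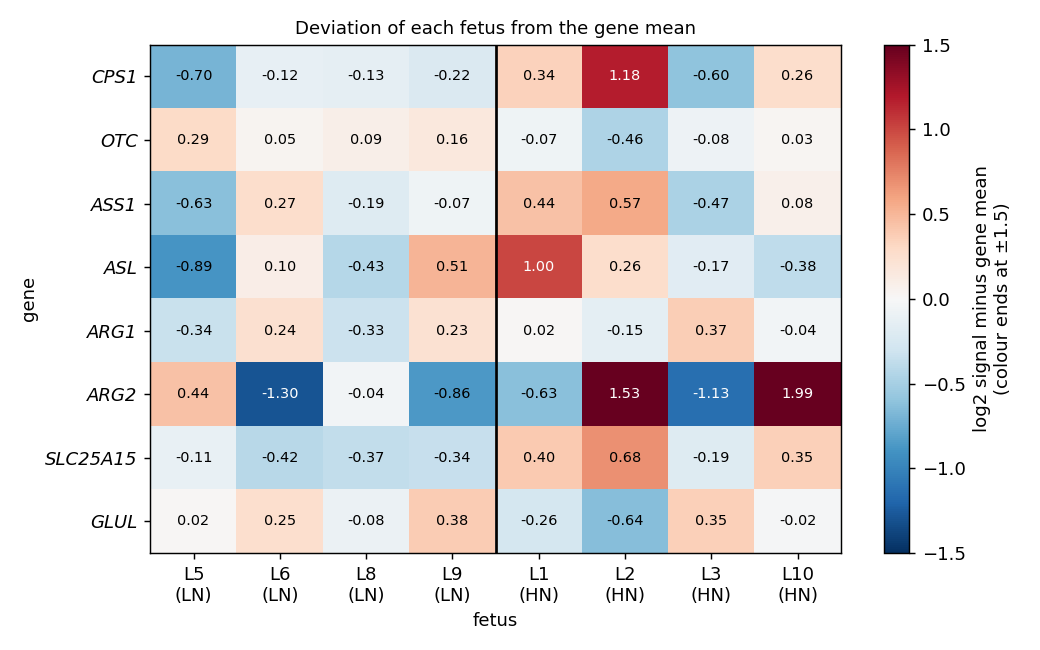
Log2 signal of each fetus (columns, LN left and HN right of the line) minus the mean of the 8 fetuses for each gene (rows), printed in each cell and coloured from blue (below) to red (above). L2 has the largest positive CPS1 value, 1.18, and the lowest GLUL value, -0.64, and L3 has -0.60 for CPS1 with 0.35 for GLUL.

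Over the 8 fetuses the other genes were then set against CPS1, in 7 relations with exact permutation p-values adjusted over the 7. ASS1 varied with CPS1, with Pearson's r of 0.887 (exact permutation p = 0.00193, adjusted p = 0.0135) and Spearman's rho of 0.952 (exact permutation p = 0.00114, adjusted p = 0.00799), and r was 0.83 without L2 and L5, the fetuses farthest from the median of CPS1. As deviations from the group means, r was 0.87 (exact permutation p = 0.00521, adjusted p = 0.0365), so the relation also held within LN and HN. SLC25A15 had r of 0.797 (exact permutation p = 0.0104, adjusted p = 0.0313) but rho of 0.524 (exact permutation p = 0.197, adjusted p = 0.275). L1, L2 and L10 stood apart from the other 5 fetuses in both genes, and among the LN fetuses SLC25A15 ran opposite to CPS1. GLUL ran opposite to CPS1, with r of -0.823 (exact permutation p = 0.0134, adjusted p = 0.0313) and rho of -0.738 (exact permutation p = 0.0458, adjusted p = 0.16), and r was -0.804 without L2 and L5. Among the LN fetuses GLUL did not run opposite to CPS1, since L5, the lowest for CPS1, was below L6 and L9 for GLUL too. OTC had r of -0.825 (exact permutation p = 0.0183, adjusted p = 0.0321) and rho of -0.643 (exact permutation p = 0.0962, adjusted p = 0.224), and with r of -0.0425 without L2 and L5 the relation rested on those fetuses. Within groups, GLUL had r of -0.774 (exact permutation p = 0.092), OTC -0.754 (p = 0.113 in the same exact permutation test) and SLC25A15 0.735 (exact permutation p = 0.16). ASL (r = 0.482), ARG1 (r = -0.178) and ARG2 (r = 0.549) had no relation with CPS1 past the threshold, with exact permutation p-values of 0.229, 0.686 and 0.159. By Spearman's rho the relation of ASS1 alone passed the adjusted threshold. The 4 relations that passed it by Pearson's r numbered 0 without L2, 1 without L9, L1 or L10, and 1 when arrays were scaled to their 75th percentile or when a gene's probes were averaged.

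**Figure D4:**
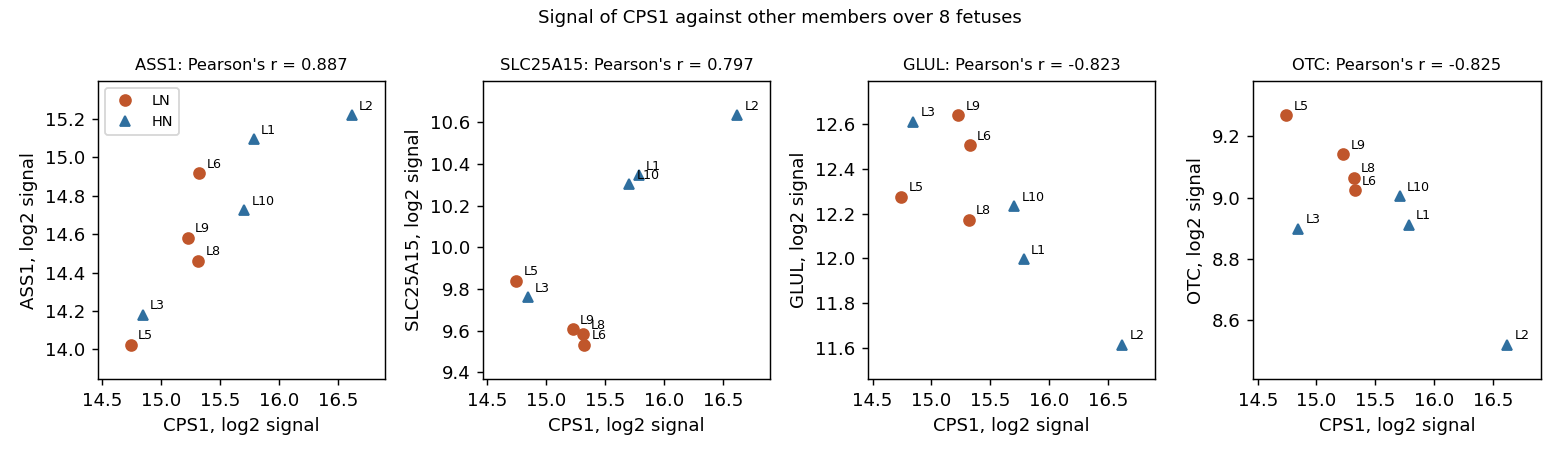
Log2 signal of ASS1, SLC25A15, GLUL and OTC (vertical axes) against that of CPS1 (horizontal axes), with a point for each of 4 LN and 4 HN fetuses and Pearson's r in each title. ASS1 tends to be higher where CPS1 is higher, from L5 to L2, whereas the OTC relation is carried by L2 at the right and L5 at the left.

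Outside the list, the detected genes with the highest r to CPS1 over the 8 fetuses were KHK (0.973), which phosphorylates fructose, CAVIN1 (0.971), a coat protein of caveolae, TPM2 (0.967), a tropomyosin of actin filaments, KCTD10 (0.947) and ADGRD1 (0.943), an adhesion receptor. The coefficients are a description of the highest values among all detected genes, over fetuses that share 2 slides. The LN minus HN log2 differences of these genes ran from -0.51 for ADGRD1 to -0.14 for KCTD10.

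Other genes of nitrogen handling were taken from 7 lists of 87 genes in all, of which 67 were detected. The LN mean was lower for 40 and higher for 27, with a median difference of -0.071. At an adjusted limma p of 0.05 the count was 0, and at an unadjusted limma p of 0.05 there were 7 genes (10.4% of 67), against 6.05% of all detected genes. Of the 7, 5 were lower and 2 higher in LN, beside 2.75% and 3.3% of all detected genes, and the 7 became 11 without L3 and also without L8, where the share of all detected genes in either direction was 7.76% and 6.03%. LN and HN did not overlap for 4 of the 67 (FTCD, DDAH2, ASNS and SLC1A4), beside 4.14% of all detected genes. By list, the unadjusted count was 2 of 23 enzymes of glutamate, glutamine and transamination, 1 of 11 transporters, 1 of 5 genes of bicarbonate supply and CPS1 modification, 1 of 10 genes of other arginine and ornithine uses and 0 of 10 regulators.

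**Figure D5:**
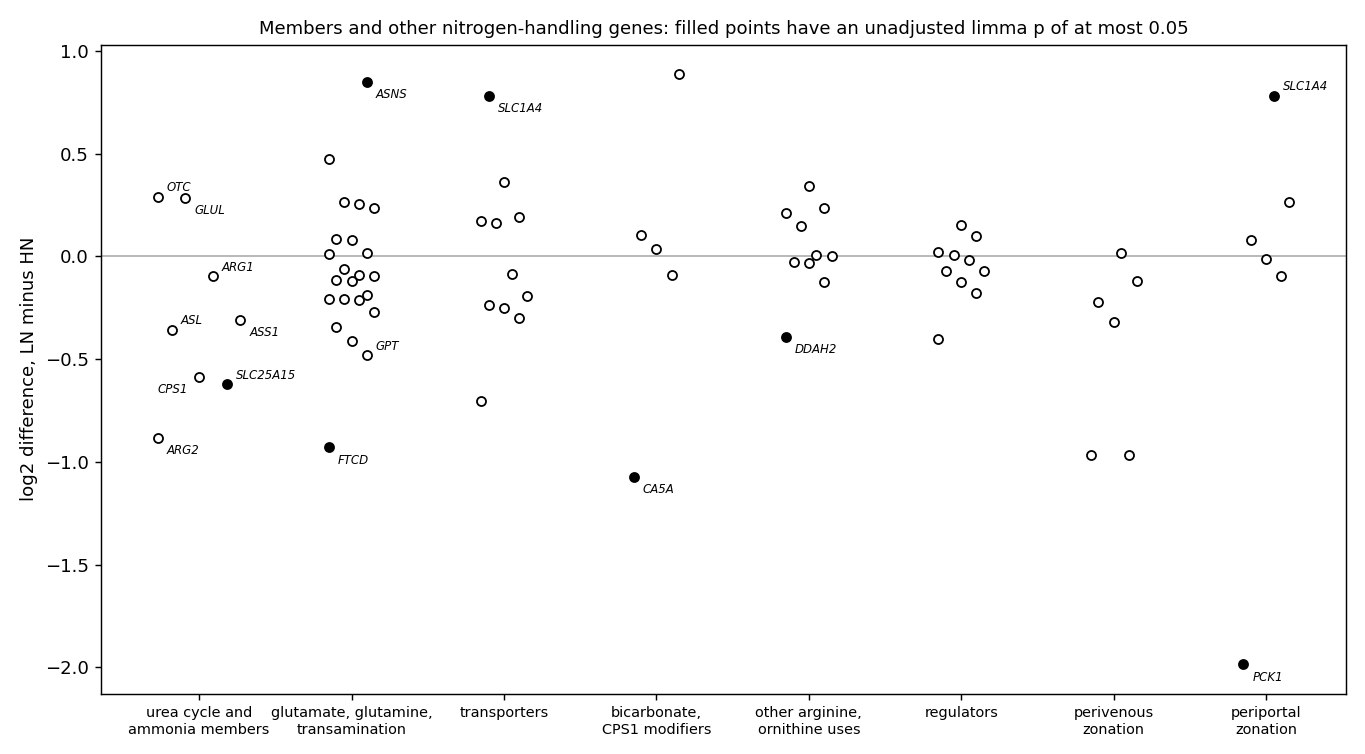
LN minus HN log2 difference (vertical axis) of the detected genes of the urea cycle list and of 7 further lists (columns), 1 point per gene and 1 periportal gene left out, filled where the unadjusted limma p is at most 0.05. The filled points below 0 are SLC25A15, FTCD, CA5A, DDAH2 and PCK1, and those above 0 are ASNS and SLC1A4, the latter drawn in both lists that hold it.

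CA5A, the mitochondrial carbonic anhydrase that supplies CPS1 with bicarbonate, read 9.94, 9.61, 10.92 and 9.84 in L5, L6, L8 and L9 and 10.42, 11.27, 11.01 and 11.90 in L1, L2, L3 and L10. LN fetus L8 lay above HN fetus L1, and the other LN fetuses lay below every HN fetus. The difference was -1.07 (SE 0.36, limma p = 0.0161, adjusted p = 0.76, exact permutation p = 0.0571). FTCD, which closes histidine breakdown and yields ammonia and glutamate, read 12.45, 13.34, 13.18 and 13.35 in LN and 13.70, 14.33, 13.57 and 14.42 in HN, without overlap. Its difference was -0.93 (SE 0.27, limma p = 0.0075, adjusted p = 0.76, exact permutation p = 0.0286).

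ASNS, which makes asparagine with the amide nitrogen of glutamine, read 8.71, 9.42, 8.24 and 8.32 in LN and 7.64, 7.96, 8.18 and 7.52 in HN, so each LN fetus was above each HN fetus. The difference was 0.85 (SE 0.27, limma p = 0.0127, adjusted p = 0.76, exact permutation p = 0.0286). SLC1A4, a carrier of alanine, serine and cysteine, read 11.09, 11.45, 11.06 and 11.09 in LN and 10.52, 10.32, 10.72 and 9.998 in HN, again without overlap. It had the lowest unadjusted limma p of the listed genes, 0.00177 (adjusted p = 0.725), with a difference of 0.78 (SE 0.18). DDAH2, which breaks down methylated arginines, was lower in each LN fetus than in each HN fetus, with a difference of -0.39 (SE 0.15, limma p = 0.0262, adjusted p = 0.765, exact permutation p = 0.0286). Its unadjusted limma p was 0.0618 with position on the slide as a block, and between 0.053 and 0.0702 without L6, L9, L2 or L10.

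None of 6 enzymes that release or pass on the nitrogen of glutamate, alanine, glutamine and ornithine had an unadjusted limma p of 0.05 or less. GLUD1, which releases ammonia from glutamate, had a difference of -0.21 (SE 0.20, limma p = 0.311, exact permutation p = 0.371). With single fetuses left out it ran from -0.36 without L1 to -0.063 without L10. The aspartate transaminases GOT1 and GOT2 had -0.20 (SE 0.33) and -0.11 (SE 0.15), and GOT2 ran from -0.20 without L8 to -0.027 without L5. GPT, alanine transaminase, had -0.48 (SE 0.23, limma p = 0.0665, exact permutation p = 0.171), with LN fetuses at 6.67, 6.04, 6.68 and 6.15 and HN fetuses at 6.62, 7.16, 6.47 and 7.21. Its difference was -0.26 with normexp and -0.60 with scaling to the 75th percentile, where the unadjusted limma p was 0.0277, and its unadjusted limma p was also below the threshold without L3, L5 or L8. The liver glutaminase GLS2 had -0.097 (SE 0.23), and OAT, which turns ornithine into glutamate semialdehyde, had 0.017 (SE 0.22), and its sign changed with the processing.

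In adult liver the cycle enzymes are richest near the portal vein and GLUL near the central vein, so genes listed for either zone were counted too. The zone of the listed genes was not tested here. Of 7 detected periportal genes, 4 had the lower mean in LN, and at an unadjusted limma p of at most 0.05 there were 2 lower genes, PCK1 among them, and 1 higher, SLC1A4, beside 2.75% and 3.3% of all detected genes. PCK1, which commits carbon from amino acids to glucose, read 6.44, 8.05, 7.82 and 7.88 in LN and 9.78, 9.75, 7.88 and 10.73 in HN. L3 was again the HN fetus within the LN range, and the difference was -1.98 (SE 0.59, limma p = 0.00854, adjusted p = 0.76, exact permutation p = 0.0857). Of 6 detected perivenous genes other than GLUL, 5 had the lower mean in LN and 0 passed an unadjusted limma p of 0.05, with differences from -0.96 (LGR5) to 0.017 (OAT). GLUL, with its higher LN mean, was on the other side from these 5 genes, and the difference between them was not tested.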

How the data were processed

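Fetal liver RNA (4 LN, 4 HN) had been hybridised in 1 colour to bovine arrays from Agilent, and the labels assign 1 fetus to each array. The authors deposited scanner intensities, background-subtracted within each array by Feature Extraction 11.0.1.1 and not normalized between arrays, and a table of quantile-normalized log2 values for 31068 probes. Per the file headers, well-above-background and outlier flags come from the same software. Here control and outlier spots were left out, log2 intensities were quantile normalized over 43637 probes, and probes flagged as well above background on 4 or more of the 8 arrays were called detected. Accessions were matched to a RefSeq gene table (assembly ARS-UCD2.0), and 26740 probes matched 12603 genes. The array was designed on UMD 3.1, so coordinates are not given. The detected probe with the highest mean signal stood for a gene, and levels were not compared between probes.

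The groups were compared 2-sided in R 4.3.3 with lmFit and eBayes of limma 3.58.1, with Benjamini-Hochberg adjustment over 33439 detected probes, and single values also with 2-sided exact permutation tests over 70 arrangements, whose smallest p is 0.0286. The number of arrays limits the precision. The functions were tested on simulated data. Besides the 8 genes, listed genes were named when they hand nitrogen to the cycle (GLUD1, GOT1, GOT2, GPT, GLS2 and OAT) or were among up to 3 genes per list and direction with the largest difference at an unadjusted p of at most 0.05. The counts include 1 listed gene whose values are not reported here. The genes and lists were chosen with earlier results of these data known. Alternatives were scaling to the 75th percentile, normexp with an offset of 50, use of the authors' log2 table, dropping the filter on dim probes, requiring detection on every array, trend and robust eBayes, averaging the detected probes of a gene, position on the slide as a block, Student's test per probe and each fetus left out.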

Additional observations from a re-analysis of the deposited data

Results flagged for a closer look

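In groups of 4 fetuses, 6 of 68 groups tested held a fetus far from the other 3, where chance gives about 1 in 20. For the brightest CPS1 probe this was LN fetus L5, at a log2 signal of 14.74, below the other LN fetuses, and L5 was also low for PCK1, at 6.44. On 1 of the 4 ARG1 probes it was LN fetus L8, at 8.82, and L8 was low for GLS2 as well, at 10.04. On 1 of the 5 GLUL probes HN fetus L2 was low, at 6.57. For SLC1A4 the LN fetus L6 was high, at 11.45.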

How the results depend on the processing

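The count of urea cycle genes at an adjusted p of 0.05 stayed at 0 under all 9 alternatives and with each of the 8 fetuses left out. The count at an unadjusted p of 0.05 was 1, and 2 with normexp and 2 with no filter on dim probes (OTC and SLC25A15), and it ran from 1 to 3 with fetuses left out (3 without L3). SLC25A15 kept its direction throughout, from -0.62 to -0.57 under the alternatives with unadjusted limma p-values from 0.00623 to 0.0188. The median difference of the 8 genes was -0.34 to -0.33 under the alternatives, and -0.49 (without L3) to -0.14 (without L5) with fetuses left out. The number of relations with CPS1 past the threshold was 4, 1 with scaling to the 75th percentile, 1 with the mean over a gene's probes, and 0 to 4 with fetuses left out (0 without L2, 1 without L9, L1 or L10). Of the nitrogen-handling genes, 7 had an unadjusted p of 0.05, 6 to 9 under the alternatives and 5 to 11 with fetuses left out (11 without L3 and without L8). Over all probes, 0 were called, and 0 to 1 with fetuses left out (1 without L6). Signs changed for OAT (-0.0068 with normexp, -0.0094 with the mean over probes, and -0.13 to 0.21 with fetuses left out), for ARG1 (0.0078 with the mean over probes, and -0.19 to 0.0087 with fetuses left out), for GLS2 (-0.27 to 0.059) and for GOT1 (-0.45 to 0.059). The cause was not tested. Slide as a block could not be fitted, because LN and HN had a slide each. The fetus numbers of LN and HN have none in common and pair no samples. Each of the 4 positions on a slide held 1 LN and 1 HN array, and with position as a block the unadjusted limma p of SLC25A15 was 0.0169.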
